A study of Mus musculus with 8 samples.

Results

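Genes of red cell maturation, protein tagging with ubiquitin and removal of mitochondria were followed, 10 in all: Bnip3l, Ulk1, Gabarapl2, Map1lc3b, Trim10, Mkrn1, Fbxo7, Ube2l6, Ube2o and Xpo7. Every probe set of the array that the platform annotation assigns to one of them was taken, which gave 20 of the 22626 probe sets in the deposited table and covered 9 of the 10 genes. Of these 20 probe sets, 17 were annotated to 1 gene, and the 3 of Bnip3l were annotated jointly to Bnip3l and its pseudogene Bnip3l-ps, whose signals cannot be told apart. No probe set was annotated to Fbxo7, a subunit that selects targets for a ubiquitin ligase, so its level was not analysed here. Over the whole table, 12393 genes had a probe set annotated to them alone. The study captured 2 kinds of cell by laser from frozen sections of the yolk sac of FVB/N mice at embryonic day 9.5: 4 samples of erythroid precursors and 4 of epithelial cells from the slides that had given the erythroid ones, in 4 pairs. Erythroid cells took 2 to 3 laser pulses per cell and epithelial cells 1, so pulses and cell type cannot be told apart. Each replicate pooled 2 to 4 yolk sacs from 2 litters and gave 10 to 39 ng of RNA, which was amplified in 2 rounds and read on 1 Affymetrix 430A 2.0 array per sample. The labels give no genetic change and no drug for either group, and they do not name the epithelium further.

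Red cells of mammals end as bags of hemoglobin, and on the way they shed their nucleus, ribosomes and mitochondria. In mitophagy a membrane closes around a mitochondrion and carries it to the lysosome, and the receptor Bnip3l (also called Nix) marks the mitochondria of mouse reticulocytes for it by binding Atg8 proteins such as Map1lc3b and Gabarapl2 on that membrane. The ubiquitin system tags other proteins for breakdown through a chain of activating enzymes, conjugating enzymes and ligases. Primitive erythroid cells of the yolk sac go through these steps after they have entered the circulation, later than the stage sampled here.

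Signals below are the MAS5 values deposited by the authors, a linear measure of brightness scaled so that the trimmed mean of each array is 500. Signals of different probe sets cannot be set against each other. Differences are on the log2 scale after quantile normalisation, erythroid minus epithelial, with the standard error (SE) of a limma fit that holds the pair as a term. A probe set was called at a Benjamini-Hochberg adjusted p under 0.05 over the 11449 probe sets bright enough to be tested. SEs and p-values rest on the spread between 4 pairs, drawn by limma towards that of other probe sets of similar brightness. They are thus not the spread of the 4 pairs of a probe set alone.

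The captures carried the markers of their labels, with other cells beside them. Of 12 erythroid markers tested, 9 were higher in the erythroid captures and 0 lower (10 and 0 at an unadjusted p under 0.05, limma), with a median of 2.09, and of 16 markers of the visceral endoderm, 14 were lower and 0 higher (15 and 0 unadjusted), with a median of -1.47. Summed signals of the endoderm markers were 69579 to 104069 in the erythroid captures against 114601 to 188239 in the epithelial ones. Most of the sum in the erythroid captures came from Ttr and Afp, with means of 28477 and 26340. On the probe sets summed these differed little (-0.20 and -0.16, neither called). Foxa2 and Vil1 had means of 296 and 456 in the erythroid captures, against 821 and 1616 in the epithelial ones. Some epithelial transcripts were thus also bright in the erythroid captures. Summed signals of the erythroid markers were 79205 to 153440 in the erythroid captures against 48529 to 92386 in the epithelial ones. Most of this sum came from the globins Hbb-bh1 and Hbb-y, with means of 36732 and 30017 in the epithelial captures. On the probe sets summed they differed little (-0.11 and 0.068, neither called). Klf1 and Gata1 had means of 413 and 273 in the epithelial captures, against 2571 and 1238 in the erythroid ones. Globin transcripts were thus also bright in the epithelial captures. Markers of mesenchyme and mesothelium summed to 41633 to 63071 in the erythroid and 9194 to 36570 in the epithelial captures, with 8 of 12 higher, and those of platelets to 5229 to 18636 and 1651 to 2796, with 3 of 6 higher. Of 9 endothelial markers 1 was higher and 0 lower, and of 7 macrophage and leukocyte markers 0 were higher and 1 lower (2 and 0, and 3 and 1, unadjusted). The endothelial marker Pecam1 and the leukocyte marker Ptprc were too dim to be tested. The part of these other cells in the results below was not tested. The Gapdh control was brighter at its 3' than at its 5' end by 38.7 to 44.4 times in pairs 1 and 2. In pairs 3 and 4 this was 7.0 to 17.4 times, and higher ratios go with shorter RNA. For the Actb control the ratio was 46.5 to 131 in pairs 1 and 2 and 7.75 to 13.5 in pairs 3 and 4. Ratios also differed within some pairs, in either direction. In pair 1 Actb was at 131 in the epithelial and 46.5 in the erythroid capture, and in pair 3 Gapdh was at 8.16 and 17.4. The marker medians differed too, at 1.25 in pairs 1 and 2 against 3.13 in pairs 3 and 4 for erythroid markers. For mesenchyme and mesothelium they were 0.36 against 2.34. RNA quality and the make-up of the captures cannot be told apart between these sets. Means within each of these sets of pairs are therefore given too.

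Among the members, Trim10, Mkrn1 and the joint Bnip3l probe sets were higher in the erythroid captures, and none was called lower. In such captures, which hold many cells, fewer cells of a type and less RNA per cell cannot be told apart. Of the 20 probe sets, 16 were tested, and 4 were too dim. Of those tested, 8 were called higher, beside 6.19% of all probe sets tested, and 0 were called lower, beside 7.69% (9 and 3 at an unadjusted p under 0.05). The shares of all probe sets at the unadjusted cut are not given here. The 8 calls belong to these 3 genes, and probe sets of a gene are not independent of each other. The median difference of the 16 was 0.73, against 0.016 over all probe sets tested. The difference had 1 sign in 4 of 4 pairs for 13 of the 16, beside 37.0% of all tested, and the deposited signals of the groups did not overlap for 9, beside 12.5%. The number called higher was 4 without replicate 3, 4 without replicate 4, 5 in pairs 1 and 2 alone, 5 in a fit without the pair term and 3 without a variance trend. Those 3, Trim10, the joint Bnip3l probe set 1416922_a_at and Mkrn1 1434853_x_at, were called in every alternative fit run.

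**Figure D1:**
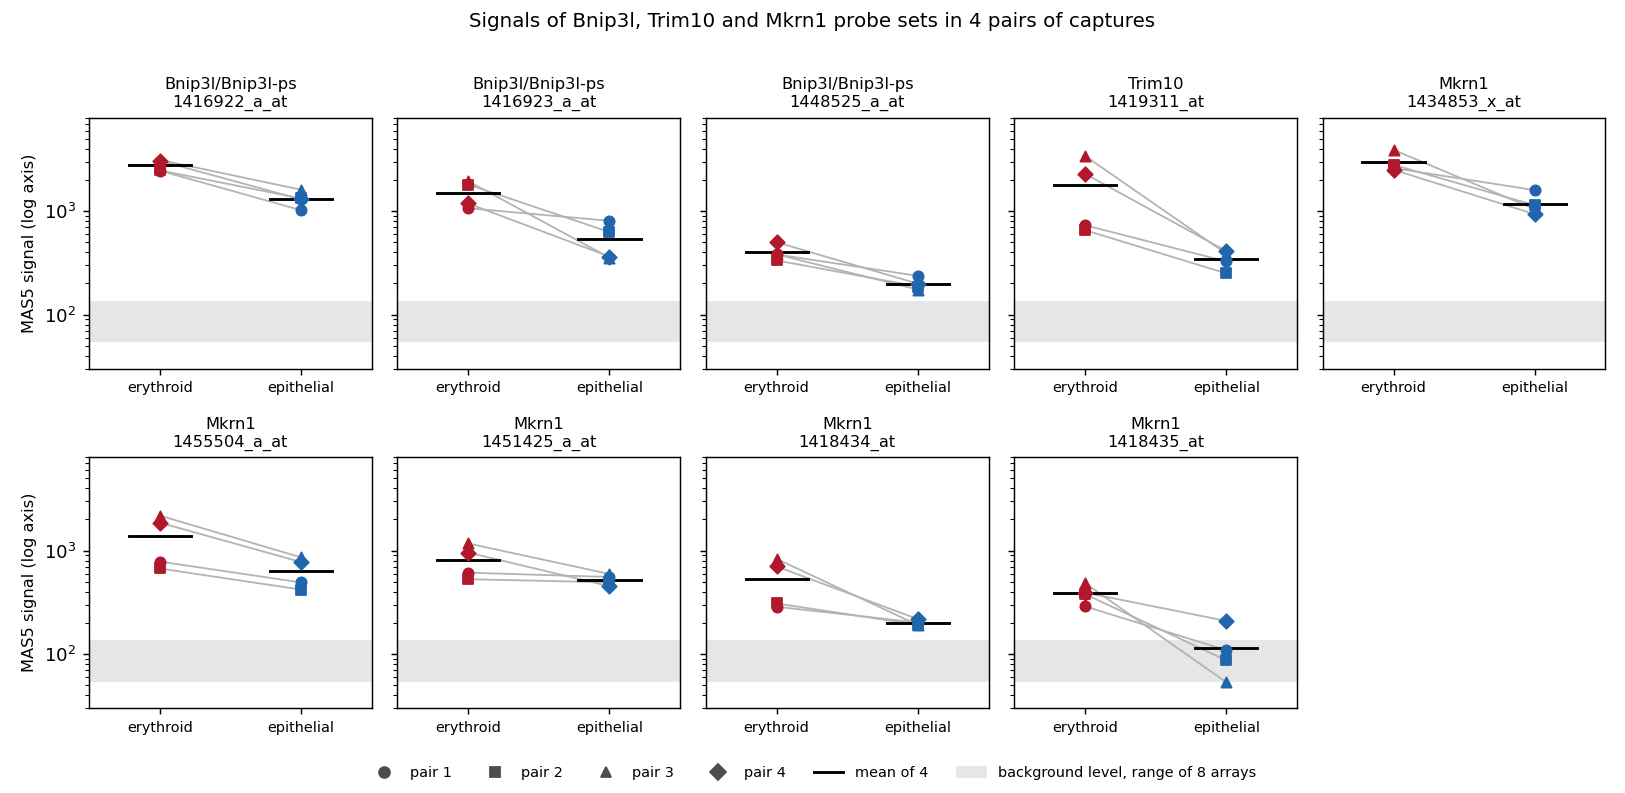
Deposited MAS5 signal (log axis) of the 9 probe sets annotated to Bnip3l (jointly with Bnip3l-ps), Trim10 and Mkrn1 in erythroid (red, left) and epithelial (blue, right) captures; grey lines join the samples of a pair, black bars are means of 4, and the grey band spans the background levels of the 8 arrays. Every pair slopes down towards the epithelial capture, and for Trim10 pairs 3 and 4 lie at 3418 and 2292 in the erythroid captures against 388 and 411 in the epithelial ones.

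RefSeq promoter sequences (GRCm38.p6) were at hand for 7 of the 10 members, with Bnip3l, Ube2o and Xpo7 missing. The 250 bases before the start are shown for the called members Trim10 and Mkrn1 (its upstream start) and for Ulk1, which had the lowest difference. They were searched on both strands for GATAA, the core that Gata1 and related factors can bind, and for CCNCNCCC, a pattern that Kruppel-like factors can bind, and matches are in capitals.
Trim10, chr17:36869324-36869573, plus strand: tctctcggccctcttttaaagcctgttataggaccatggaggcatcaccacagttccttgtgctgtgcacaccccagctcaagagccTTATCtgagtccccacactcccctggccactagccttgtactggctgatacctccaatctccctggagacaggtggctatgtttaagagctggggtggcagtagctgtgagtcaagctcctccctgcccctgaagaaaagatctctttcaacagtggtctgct
Mkrn1, chr6:39420370-39420619, minus strand: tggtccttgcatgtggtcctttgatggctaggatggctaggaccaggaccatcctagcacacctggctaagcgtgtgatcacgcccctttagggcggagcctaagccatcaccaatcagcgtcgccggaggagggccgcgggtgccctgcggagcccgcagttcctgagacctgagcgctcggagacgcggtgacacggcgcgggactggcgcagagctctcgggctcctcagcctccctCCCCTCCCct
Ulk1, chr5:110810082-110810331, minus strand: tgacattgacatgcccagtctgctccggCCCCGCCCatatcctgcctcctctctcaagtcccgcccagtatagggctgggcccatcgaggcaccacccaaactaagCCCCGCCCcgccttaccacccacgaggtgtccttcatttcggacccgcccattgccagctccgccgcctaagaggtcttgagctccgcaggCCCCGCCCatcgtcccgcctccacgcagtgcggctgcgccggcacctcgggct
Trim10 held 1 match to GATAA, read on the other strand, and 0 to CCNCNCCC, while Mkrn1 held 0 and 1 and Ulk1 0 and 3. Of 32851 promoter windows of the same length, 22.6% held GATAA and 45.9% held CCNCNCCC, so either match is common. Trim10 had 1 CpG in this window, Mkrn1 19 and Ulk1 20, against a median of 6 over all windows.

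The joint signal of the mitophagy receptor Bnip3l and its pseudogene was higher in the erythroid captures on all 3 probe sets. The brightest probe set, 1416922_a_at, gave 2467, 2477, 3129 and 3069.8 in erythroid captures of pairs 1 to 4, against 1021, 1326, 1611 and 1301 in the epithelial captures. The lowest erythroid value lay above the highest epithelial one, and the 4 pairs differed by a similar amount. The difference was 1.14 ± 0.17 (SE, n = 4 pairs; limma adjusted p = 0.00287), with 1.22 in pairs 3 and 4, against 1.06 in pairs 1 and 2. Its call held when each pair was left out in turn (adjusted p = 0.00651 to 0.0251).

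The second probe set of Bnip3l and Bnip3l-ps, 1416923_a_at, had 1068, 1809, 1950.5 and 1187 in the erythroid captures, against 806, 628, 355 and 364 in the epithelial captures. The groups did not overlap, and the within-pair differences were uneven, at 0.35, 1.55, 2.47 and 1.65 on the log2 scale. It was higher by 1.50 ± 0.30 (adjusted p = 0.0089), and without replicate 4 its value of 1.46 was not called (adjusted p = 0.0538). The last, 1448525_a_at, had 382, 334, 382 and 501 in the erythroid captures, against 237, 187, 174 and 199 in the epithelial captures, with no overlap. It was higher by 0.90 ± 0.24 (adjusted p = 0.0301), a call that ended in 8 of the 14 alternative fits, among them those without replicate 2 (0.83, adjusted p = 0.0801), without replicate 3 (0.89, adjusted p = 0.0804), without replicate 4 (0.85, adjusted p = 0.159) and without the pair term (adjusted p = 0.0727). It was 0.99 in pairs 3 and 4, against 0.81 in pairs 1 and 2, which alone gave no call (adjusted p = 0.208). The 3 probe sets thus had 1 direction in 4 of 4 pairs, with differences of 0.90 to 1.50, and the share of the pseudogene in them was not tested.

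Ulk1, the kinase that starts autophagy and helps to clear mitochondria and ribosomes from mouse reticulocytes, had the lowest difference of the members. Its probe set 1448370_at had signals of 176, 89.2, 222 and 225 in the erythroid captures, against 269.6, 239.6, 288 and 338 in the epithelial captures. The groups did not overlap, every pair had the lower value in the erythroid capture, and the erythroid capture of pair 2 was the only one of the 8 that was not above its array's background level. The difference of -0.84 ± 0.27 was not called (adjusted p = 0.0617, 95% interval -1.43 to -0.25), and it was -0.62 in pairs 3 and 4, against -1.06 in pairs 1 and 2. With the arrays centred on their medians it passed, at -0.90 (adjusted p = 0.0495). That scaling also moved the median of all probe sets tested to -0.11, against 0.016, and the share of calls that were higher to 29.3%, against 44.6%. The other probe set of Ulk1, 1416504_at, lay between 2.82 and 10.5 on all arrays, below background, and was too dim to be tested.

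The Atg8 proteins, which are joined to a lipid of the growing membrane and hold both cargo receptors and Ulk1, lay above background in both kinds of capture on all but 1 probe set. Map1lc3b, the protein known as LC3B, gave probe sets that disagree. On 1415928_a_at the signals were 4028, 3451, 2681 and 3131 in the erythroid captures, against 4911, 4631, 4266 and 4073 in the epithelial captures, a narrow gap with no overlap. On 1415930_a_at they were 4115, 3211, 4223 and 3871 in the erythroid captures, against 4059, 3125, 3646 and 3629.5 in the epithelial captures, with the ranges overlapping. The differences were -0.38 ± 0.14 (adjusted p = 0.105) and 0.16 ± 0.14 (adjusted p = 0.499), and the second turned to -0.095 with the arrays centred on their medians.

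The Map1lc3b probe set 1415929_at had 357, 337, 661 and 911 in the erythroid captures, against 379, 616, 1086 and 1511 in the epithelial captures. The pairs differed more from each other than the cell types did, and in each pair the erythroid capture was lower. The difference was -0.60 ± 0.21 (adjusted p = 0.0806), and it was called with the arrays centred on their medians (-0.78, adjusted p = 0.0435). The fourth, 1428024_at, lay between 3.80 and 13.8 on all arrays and was too dim to be tested. Gabarapl2 (1423187_at), of the other branch of this family, had 195, 350.2, 393 and 619.5 in the erythroid captures, against 202, 263, 291 and 554 in the epithelial captures. Its groups overlapped, the erythroid capture was the lower one in pair 1 alone, and the difference of 0.19 ± 0.24 was not called (adjusted p = 0.646, 95% interval -0.34 to 0.71).

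**Figure D2:**
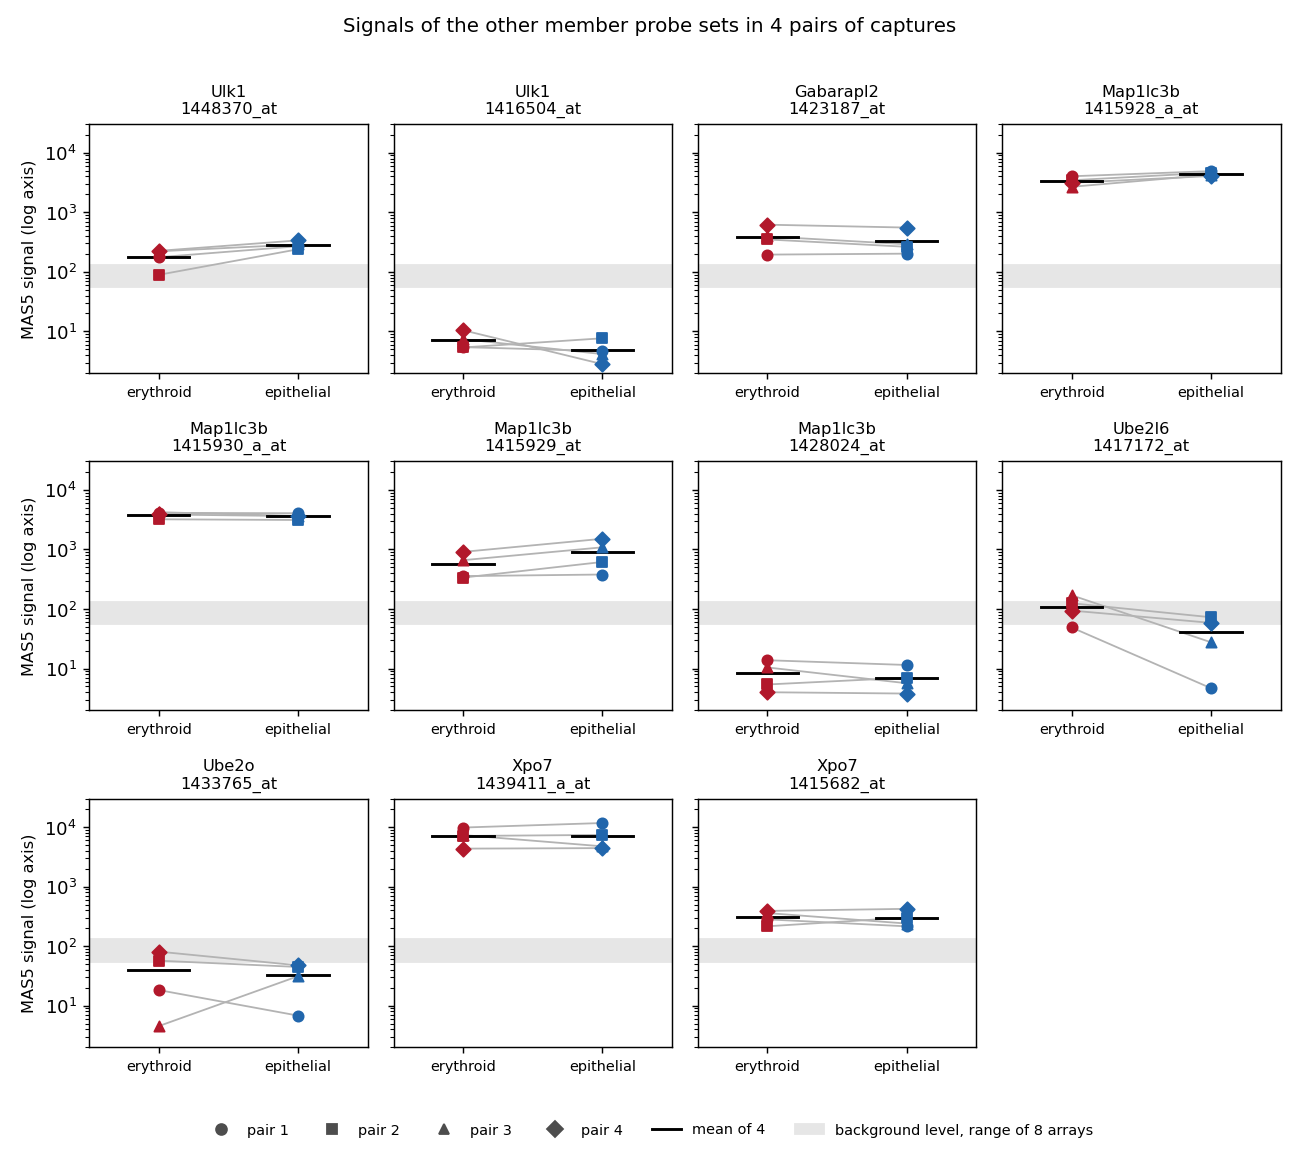
Deposited MAS5 signal (log axis) of the 11 probe sets annotated to Ulk1, Gabarapl2, Map1lc3b, Ube2l6, Ube2o and Xpo7 in erythroid (red, left) and epithelial (blue, right) captures; lines, bars and the grey band are as in the plot of Bnip3l, Trim10 and Mkrn1. Ube2l6 lies around the background band and Ube2o within or below it, and the levels of Map1lc3b 1415930_a_at and of both Xpo7 probe sets overlap between the groups.

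Trim10, a RING finger protein with a role in the late differentiation of mouse red cell precursors, had the largest difference of the members, and the only GATAA match among the members' promoter windows shown above was its own. Its probe set 1419311_at gave 731, 655, 3418 and 2292 in erythroid captures of pairs 1 to 4, against 326, 249.8, 388 and 411 in the epithelial captures. No values overlapped, and the erythroid captures of pairs 3 and 4 stood above those of pairs 1 and 2 while the epithelial captures stayed within a narrow range. The mean signals were 1774 ± 1330.5 in the erythroid and 344 ± 72.1 in the epithelial captures (SD, n = 4 each), and the difference was 2.06 ± 0.32 (SE, n = 4 pairs; adjusted p = 0.00333). Within pairs it was 0.99, 1.55, 3.18 and 2.51. The mean difference of pairs 3 and 4 was 2.84, against 1.27 in pairs 1 and 2, and the difference between these sets did not pass its test (adjusted p = 0.0621). Trim10 was called in each of the 14 alternative fits, with values of 1.27 to 2.84. Over the same sets of pairs the median of the 12 erythroid markers was 3.13 in pairs 3 and 4, against 1.25 in pairs 1 and 2, and that of the 12 mesenchyme and mesothelium markers 2.34, against 0.36. Their part in the difference was not tested.

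Mkrn1, a RING finger ubiquitin ligase of the makorin family, was measured by 5 probe sets, and 4 of them were higher in the erythroid captures. The brightest, 1434853_x_at, had signals of 2607, 2804, 3913 and 2511 in the erythroid captures, against 1595, 1140.3, 1043 and 933 in the epithelial captures, with no overlap. It was higher by 1.38 ± 0.22 (SE, n = 4 pairs; adjusted p = 0.00335), with 1.76 in pairs 3 and 4, against 0.99 in pairs 1 and 2, and was called in all 14 alternative fits. The x in its name marks probes that can also pick up related transcripts, so its value alone is uncertain. On 1455504_a_at the signals were 784, 672, 2184 and 1864 in the erythroid captures, against 493, 420.4, 861 and 776 in the epithelial captures. Here the groups overlapped, both captures of pairs 3 and 4 were brighter than those of pairs 1 and 2 of their own kind, and the erythroid capture was the brighter one in each pair.

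That second probe set of Mkrn1 was higher by 1.01 ± 0.22 (adjusted p = 0.0129). Its call ended without replicate 3 (0.88, adjusted p = 0.0615), without replicate 4 (0.91, adjusted p = 0.0914) and without the pair term (adjusted p = 0.186). Its value was 1.37 in pairs 3 and 4, against 0.66 in pairs 1 and 2, which alone gave no call (adjusted p = 0.172). On 1418434_at the signals were 287, 309, 833 and 703 in the erythroid captures, against 202, 192, 191 and 218 in the epithelial captures. The epithelial values were nearly level, and the erythroid ones fell into a lower set, pairs 1 and 2, and a higher set, pairs 3 and 4. The difference of 1.18 ± 0.29 (adjusted p = 0.0225) was 1.73 in pairs 3 and 4, against 0.64 in pairs 1 and 2 (adjusted p = 0.409 in these alone). It was not called without replicate 3 (0.91, adjusted p = 0.101), without replicate 4 (1.09, adjusted p = 0.128) or without the pair term (adjusted p = 0.0851).

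On 1418435_at Mkrn1 had 289.5, 379.9, 485 and 393 in the erythroid captures, against 109, 86.9, 53.4 and 209 in the epithelial captures. The groups did not overlap, but only 2 of the 4 epithelial captures lay above background, so the size of the difference, 1.77 ± 0.37 (adjusted p = 0.0117), is uncertain. Without replicate 3 it was 1.44 and not called (adjusted p = 0.0527). The fifth probe set, 1451425_a_at, had 613, 529, 1173 and 958 in the erythroid captures, against 556, 494, 595 and 453 in the epithelial captures, and the groups overlapped. It was at 0.57 ± 0.24 and not called (adjusted p = 0.143), with 0.11 in pairs 1 and 2. It passed in pairs 3 and 4 alone, at 1.03 (adjusted p = 0.00553). A fit of so few arrays takes its p-value mostly from the variance of other probe sets, so it says little about replication of this one. All 5 probe sets of Mkrn1 had the higher value in the erythroid capture in 4 of 4 pairs.

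**Figure D3:**
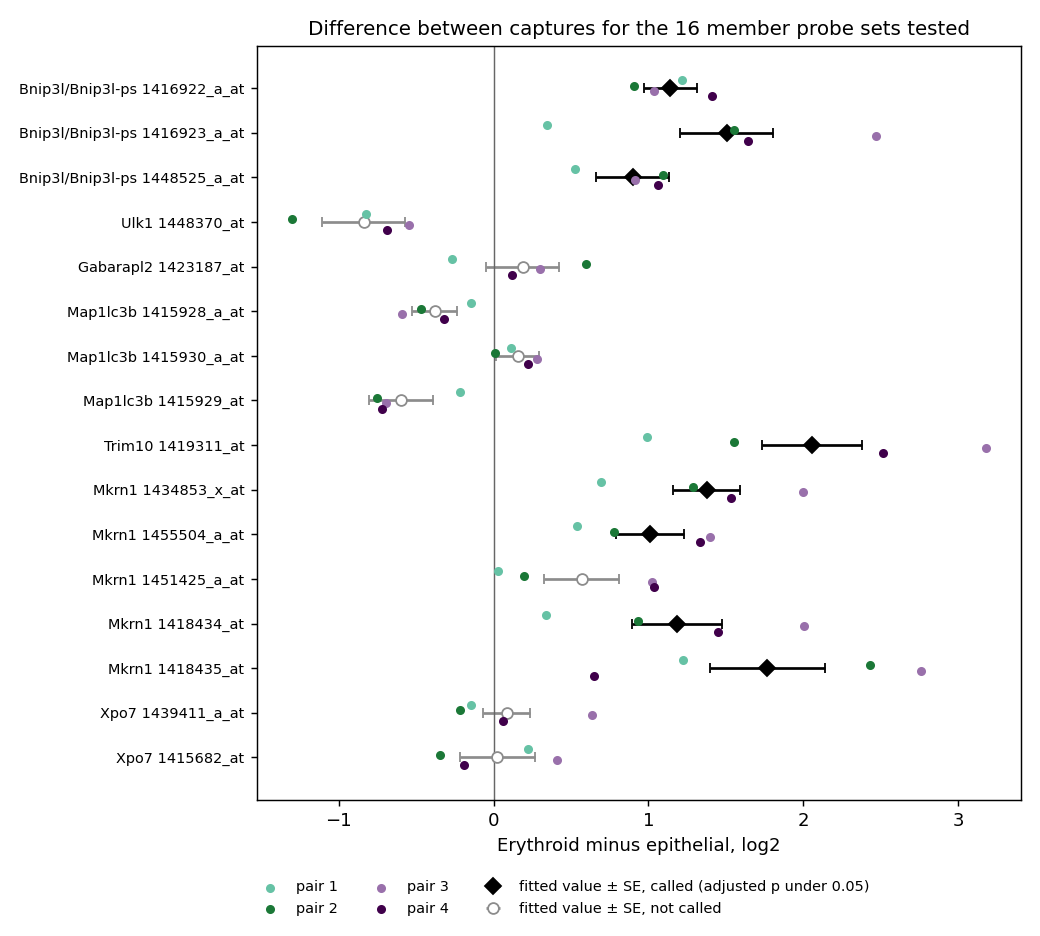
Erythroid minus epithelial difference (log2) of the 16 member probe sets tested; diamonds (called, adjusted p under 0.05) and open circles (not called) are fitted values with their SE, and coloured points are the 4 pairs. All 4 points lie above 0 for the 3 Bnip3l, the Trim10 and the 5 Mkrn1 probe sets, those of Ulk1 lie below 0, and those of Xpo7 lie on both sides.

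The 2 remaining conjugating enzymes were too dim to be tested. Ube2l6, which attaches the ubiquitin-like protein ISG15 to its targets, had 48.9, 125, 170.3 and 94.1 in the erythroid captures (1417172_at), against 4.69, 72.7, 27.7 and 58.6 in the epithelial captures. It lay above background on 3 of 4 erythroid and 1 of 4 epithelial arrays, and the erythroid capture was the brighter one in each pair. In a fit with no filter on dim probe sets its difference of 1.28 ± 0.54 was not called (adjusted p = 0.226). Ube2o, a large enzyme that combines conjugating and ligase activity and clears ribosomes from mouse reticulocytes, had 18.3, 57, 4.55 and 80.9 in the erythroid captures (1433765_at), against 6.82, 44.7, 31.3 and 47.6 in the epithelial captures. None of these values lay above background, so the arrays give no order of its levels.

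Xpo7, a nuclear export receptor whose loss hinders the condensation of the nucleus in mouse erythroblasts, showed no difference that could be told from the spread. On 1439411_a_at the signals were 9816, 7086, 7347 and 4345 in the erythroid captures, against 11696, 7385, 4748 and 4431 in the epithelial captures. Both captures of pair 1 were the brightest of their groups, and the groups overlapped across most of their range. On 1415682_at the signals were 282, 216, 359 and 391 in the erythroid captures, against 215, 303, 239.8 and 424 in the epithelial captures. The differences were 0.084 ± 0.15 (adjusted p = 0.757, 95% interval -0.26 to 0.42) and 0.024 ± 0.24 (adjusted p = 0.963, 95% interval -0.51 to 0.56). The sign was positive in 2 of 4 pairs on each probe set, and it turned on both with the arrays centred on their medians, to -0.11 and -0.096, and without replicate 3, to -0.099 and -0.10. On the dimmer one it also turned without replicate 1, to -0.042.

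A test of the difference between the sets of pairs called 0 of the 16 member probe sets with limma (6 at an unadjusted p under 0.05), beside 1.84% of all probe sets tested. At so low a share, 0 of 16 says little about the members. The share of all probe sets at the unadjusted cut is not given here. The joint Bnip3l probe set 1416922_a_at and Mkrn1 1418435_at differed between cell types by about as much in pairs 3 and 4 (1.22 and 1.70) as in pairs 1 and 2 (1.06 and 1.83). Within pairs 1 to 4, though, Mkrn1 1418435_at was at 1.22, 2.43, 2.76 and 0.65, so its set means average uneven pairs. Bnip3l 1416923_a_at was at 2.06 in pairs 3 and 4, against 0.95 in pairs 1 and 2 (adjusted p of the difference between the sets = 0.26). Of the uncalled probe sets, Map1lc3b 1415928_a_at was at -0.45 in pairs 3 and 4, against -0.31 in pairs 1 and 2, and 1415929_at at -0.71, against -0.49. Map1lc3b 1415930_a_at was at 0.25, against 0.061, and Gabarapl2 at 0.21, against 0.16. For Xpo7 the values were 0.35, against -0.18, on 1439411_a_at and 0.11, against -0.060, on 1415682_at.

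The genes nearest to each called member over the 8 arrays, by the Euclidean distance between centred log2 values, were found among all genes tested. For Trim10 they were Uros, an enzyme of heme synthesis, at a distance of 1.04, Icam4, a blood group adhesion protein, at 1.11, and Slc4a1, which exchanges chloride and bicarbonate across the red cell membrane, at 1.11. For Mkrn1 they were the kinesin Kif2a at 0.46, Isca1, which helps to build iron-sulfur clusters, at 0.50 and Rgs10 at 0.58. For the joint Bnip3l probe set they were the glutathione transferase Mgst3 at 0.57, Hacd1 at 0.58 and the centriole kinase Plk4 at 0.59. These distances describe 8 arrays that fall into 2 cell types, and a gene with larger differences has larger distances to all others.

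In the wider pathways the called genes ran both ways. Beside the members, 146 genes of these pathways were tested, of which 9 were called higher in erythroid captures and 8 lower (11.6% called, beside 14.9% of all 7191 genes tested), with a median of 0.020 against -0.0052 over all genes. For all genes, 6.02% were called higher and 8.87% lower. Each gene was read from its brightest tested probe set annotated to it alone, and the counts by list below include the members that stand in it. Bnip3l, which has joint probe sets only, is in none of these counts or medians. Some of these calls rest on few arrays: without replicate 4, 15 of the 17 ended (adjusted p = 0.0521 to 0.18), without replicate 3, 11 (0.0606 to 0.175), without replicate 1, 6 (0.0509 to 0.108) and without replicate 2, 2 (0.0525 to 0.107). Wdr45b was called in each of these fits.

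Of 13 genes that start autophagy and form its membrane, 2 were lower and 0 higher (4 and 1 unadjusted, limma), with a median of -0.36. These were Wdr45b, a lipid-binding protein of the early membrane, at -0.998 ± 0.187 (mean signals 1424 in erythroid and 2871 in epithelial captures), and Vmp1, a membrane protein of the endoplasmic reticulum, at -0.67 ± 0.17. Vmp1 was called on 1 of its 2 tested probe sets. Of 15 genes of the Atg8 proteins, their conjugation and their cargo receptors, 2 were lower and 0 higher (3 and 0 unadjusted), with a median of -0.13. Atg12, which joins Atg5 in the conjugating enzyme, was at -1.12 ± 0.27 and -0.42 (adjusted p = 0.282) as the mean of its 2 probe sets, and the cargo receptor Nbr1 at -0.77 ± 0.19 and -0.80 (adjusted p = 0.183).

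Among 18 mitophagy receptors and regulators, 1 was lower and 1 higher (7 and 2 at an unadjusted p under 0.05, limma). The lower one was Bnip3, the closest relative of Bnip3l. Its signals averaged 2453 ± 376 in the erythroid and 5847 ± 2139 in the epithelial captures (SD, n = 4 each), ranging from 1917 to 2788 and from 4081 to 8902, with no overlap. The difference was -1.16 ± 0.23 (adjusted p = 0.00914), with 1 sign in 4 of 4 pairs, and its call ended without replicate 4 (-1.12, adjusted p = 0.0541). The 2 related receptors thus differed between the captures in opposite directions, and the difference between them was not tested. Of the 18 genes, Marchf5, a ubiquitin ligase of the outer mitochondrial membrane, was the 1 called higher, at 0.55 ± 0.15. With the arrays centred on their medians it was at 0.32 (adjusted p = 0.415). Its call also ended without replicate 1 (adjusted p = 0.0597), without replicate 3 (adjusted p = 0.167) and without replicate 4 (adjusted p = 0.135). Bnip3l, higher on its joint probe sets, is not among the 18. The median of this list was -0.35.

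**Figure D4:**
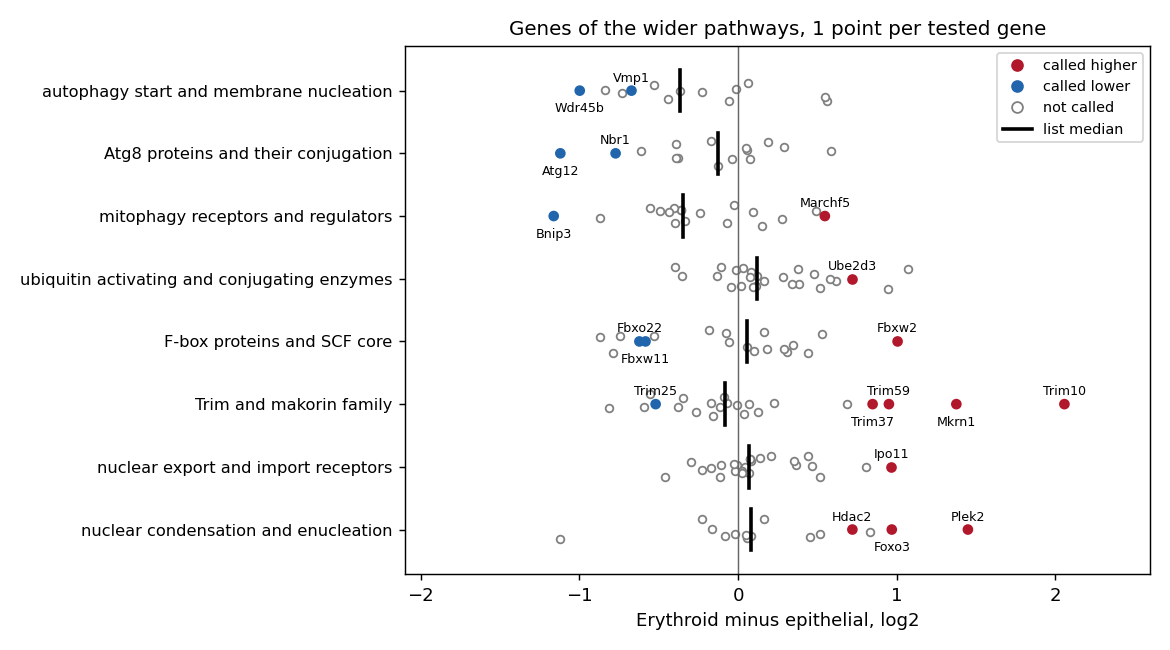
Erythroid minus epithelial difference (log2) of each tested gene in 8 lists of the wider pathways, with called genes in red (higher) and blue (lower), uncalled genes as open circles and list medians as black bars. The 3 autophagy and mitophagy lists have medians of -0.36, -0.13 and -0.35, and Trim10 and Mkrn1, at 2.06 and 1.38, are the highest of theirs. Bnip3l has joint probe sets only and is not shown.

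Of 26 activating and conjugating enzymes of ubiquitin and its relatives, 1 was higher and 0 lower (6 and 1 unadjusted), with a median of 0.12. It was Ube2d3, a conjugating enzyme of many ligases, at 0.72 ± 0.16, though 1 of its 7 tested probe sets was called and their mean gave 0.20 (adjusted p = 0.444). Of the ISG15 pathway 1 gene was tested, and it was not called. Of 19 F-box proteins and core subunits of their ligase, 1 was higher and 2 lower (2 and 6 unadjusted). The higher one was Fbxw2 at 1.01 ± 0.27, called on 1 of its 3 tested probe sets. The lower ones were Fbxw11 at -0.58 ± 0.12 and Fbxo22 at -0.62 ± 0.13, each called on 1 of 2 tested probe sets. Of 22 Trim and makorin genes, 4 were higher and 1 lower, with a median of -0.080 (4 and 3 unadjusted). Beside Trim10 and Mkrn1 these were Trim59 at 0.95, the centrosome ligase Trim37 at 0.85 and, lower, Trim25, a ligase of antiviral signalling, at -0.52. Trim37 was called on 1 of its 3 tested probe sets and Trim25 on 2 of 3.

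Of 25 nuclear transport receptors and their partners, 1 was higher and 0 lower (5 and 0 unadjusted), Ipo11 at 0.97 ± 0.25, and the median was 0.069. Of 15 genes of nuclear condensation and enucleation, 3 were higher and 0 lower (5 and 1 unadjusted), with a median of 0.084. Plek2, a pleckstrin of the erythroblast cytoskeleton, was at 1.45 ± 0.28, with mean signals of 568 ± 207 in the erythroid and 186 ± 58.9 in the epithelial captures (SD, n = 4 each). Foxo3, a transcription factor of red cell maturation in the mouse, was at 0.97 ± 0.21. The histone deacetylase Hdac2, needed for nuclear condensation in mouse erythroblasts, was at 0.72 ± 0.20, a call lost with each pair left out in turn (adjusted p = 0.0509 to 0.18).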

How the data were processed

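The authors deposited 1 intensity per probe set and array, a linear MAS5 signal. GCOS, MAS5 and affy are named, per the submitters' processing notes, without a version, and detection calls were not used here. Of 22690 probe sets, 64 controls were left out. Symbols came from the platform annotation and were updated through gene identifiers for 20351 probe sets. In R 4.3.3, 8.14, the 10th percentile over the table, was added to each value before log2 and quantile normalisation. Probe sets that reached their array's median on at least 4 of 8 arrays were fitted with limma 3.58.1 (pair and cell type as terms, variance trend, 3 residual degrees of freedom, two-sided). A pair shares its slides, per the labels' protocols, and deviations from the group means correlated at 0.44, 0.34, 0.31 and 0.54 within pairs 1 to 4. Captures of different pairs correlated at 0.28 to 0.35 within pairs 1 and 2 and within pairs 3 and 4, about as much as in pairs 2 and 3, and at -0.45 to -0.29 across these sets, so the correlations separate the sets more than the pairs. Background was set per array at the 95th percentile of 117 probe sets whose genes belong to skin, gut or sense organs (chemosensory receptors, keratin-associated proteins, defensins), which gave levels of 55.1 to 133. The number of arrays limits the precision. The procedure was tested on simulated data. Alternatives changed the scaling, offset (1 or 32), filter, variance trend, pair term and the pairs used. Fits of fewer pairs had fewer residual degrees of freedom than the main fit, so their p-values lean more on the variance of other probe sets.

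The members and lists were chosen with earlier results of these data known. From each list, at most the 2 called genes with the largest change in each direction were named, beside the 3 nearest genes of a called member. Trim59, Trim37 and Hdac2 were named after their values were seen.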

Additional observations from a re-analysis of the deposited data

Results flagged for a closer look

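In the epithelial captures, Trim10 was set apart by 1 sample, pair 2, whose normalised log2 value of 7.92 lay far below the 8.58, 8.62 and 8.62 of pairs 1, 3 and 4. The gap to its neighbour was 0.941 of the group's range, above Dixon's 95% critical value for 4 samples. On the log2 of the deposited signals the ratio was 0.537, under that value. Chance marks about 1 group in 20, so 2 of the 40 groups examined would be marked on average, and 1 was.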

How the results depend on the processing

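Trim10, the Bnip3l probe set 1416922_a_at and the Mkrn1 probe set 1434853_x_at were called higher in all 14 alternatives. The member probe sets called higher, 8, became 3 without a variance trend, 5 without the pair term (no replicate block), 4 to 8 when 1 pair was left out and 5 in pairs 1 and 2 alone. Those called lower, 0, became 2 (Ulk1 and Map1lc3b 1415929_at) with the arrays centred on their medians. Over all probe sets, 709 higher and 881 lower became 179 and 339 without a variance trend, 160 and 285 without the pair term, 202 to 690 and 332 to 829 when 1 pair was left out, and 1402 and 1457 in pairs 3 and 4 alone. In pairs 1 and 2 alone 543 were lower, and with median centring 455 were higher, 29.3% of its calls against 44.6%. Among the other pathway genes, 9 higher became 4 with median centring, 1 without a variance trend, 1 without the pair term, 0 to 10 when 1 pair was left out (0 with limma without replicate 4, and 14 unadjusted), 2 in pairs 1 and 2 alone and 20 in pairs 3 and 4 alone, and 8 lower became 0 without a variance trend (18 unadjusted), 2 without the pair term, 2 to 10 when 1 pair was left out, 5 in pairs 1 and 2 alone and 19 in pairs 3 and 4 alone. Signs turned for uncalled values near 0: Map1lc3b 1415930_a_at to -0.095, Xpo7 1439411_a_at to -0.11 and Xpo7 1415682_at to -0.096 with median centring, and Xpo7 1439411_a_at to -0.18 and 1415682_at to -0.060 in pairs 1 and 2 alone. When 1 pair was left out, Xpo7 1439411_a_at ranged from -0.099 to 0.18 and 1415682_at from -0.10 to 0.15. The cause was not tested.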
